A study of Mus musculus with 7 samples.

Results

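The imprinted Dlk1-Dio3 region of mouse chromosome 12 carries a large cluster of microRNAs (miRNAs), and 38 mature miRNAs of it were chosen by name (mmu-miR-376a-3p, mmu-miR-376b-3p, mmu-miR-376c-3p, mmu-miR-487b-3p and mmu-miR-668-3p among them; the species prefix mmu is left out below). The array carried 37 of the 38 among its 1881 miRNA names; miR-299a-5p was not analysed here. The samples were CD4+ T cells, selected with antibody-coated magnetic beads from lymph nodes draining the affected tissue of mice. EAM, a myocarditis model, gave 4 arrays labelled day 6 after induction, and LAD, a myocardial infarction model, gave 3 arrays labelled day 3. The design text of the series has these days the other way round. The labels used here name no strain, age or induction procedure, and they do not say whether an array held cells of more than 1 mouse. All samples came from a diseased model and none from healthy mice, so each difference is between the models. Model and day changed together and so did the slide column, and these cannot be told apart. The p-values measure the spread between these arrays, which may in part be technical.

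Genes of the Dlk1-Dio3 region are expressed from only 1 parental chromosome: the coding genes Dlk1, Rtl1 and Dio3 from the paternal copy, and the noncoding RNAs, with the miRNAs cut from them, from the maternal copy. The miRNAs are made from long noncoding transcripts, so neighbours in the cluster can share a precursor, but processing and stability set the level of each mature strand. They are best known from embryo, placenta and brain, and mature lymphocytes usually carry little of most of them. A miRNA finds its target messages mainly through its seed, bases 2 to 8 from its 5′ end.

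RefSeq (GRCm38.p6) placed a hairpin for 36 of the 37 miRNAs, all on the plus strand of chromosome 12. Of these, 9 lay within Rtl1, which is transcribed from the opposite strand, 2 within the noncoding gene Rian, 6 within the noncoding gene Mirg, and 19 in the stretch between Rian and Mirg within no listed gene. The 5 miRNAs of the cluster that were detected on any array, miR-376c-3p, miR-376b-3p, miR-376a-3p, miR-487b-3p and miR-668-3p, all lay in that last stretch. In the array's own mm9 annotation their probes matched chr12:110960981-110961000 (miR-376c-3p), chr12:110961722-110961738 (miR-376b-3p), chr12:110962039-110962054 (miR-376a-3p), chr12:110965597-110965613 (miR-487b-3p) and chr12:110972996-110973007 (miR-668-3p), on the plus strand. The starts of miR-376c-3p and miR-376b-3p were 741 bases apart and those of miR-376b-3p and miR-376a-3p 317 bases, with no other member between them, and the 5 starts spanned 12015 bases.
The sequences of these 5 are shown because the results turn on them and because 3 of them are close relatives. In the mature sequences the seed is in capitals:
miR-376a-3p: aUCGUAGAggaaaauccacgu
miR-376b-3p: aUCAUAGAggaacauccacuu
miR-668-3p: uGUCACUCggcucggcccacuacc
In the hairpins of miR-376c and miR-487b the capitals mark the stretch that pairs with the longest probe for the 3p strand:
miR-376c hairpin: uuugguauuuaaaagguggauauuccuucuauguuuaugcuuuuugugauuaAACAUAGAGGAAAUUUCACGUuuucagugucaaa
miR-487b hairpin: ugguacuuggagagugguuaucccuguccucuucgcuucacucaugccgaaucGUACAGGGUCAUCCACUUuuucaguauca
The longest array probes are DNA read 5′ to 3′, with capitals where a base differs from the miR-376a-3p probe, aligned from the first base; the miR-668-3p probe was not aligned:
miR-376a-3p probe: acgtggattttcctcta
miR-376b-3p probe: aAgtggatGttcctctat
miR-376c-3p probe: acgtgAaAtttcctctatgtt
miR-487b-3p probe: aAgtggatGACcctGtac
miR-668-3p probe: ggtagtgggccga
The probes of miR-376b-3p and miR-376c-3p each differed from the miR-376a-3p probe at 2 of 17 aligned bases, and from each other at 4 of 18. The miR-487b-3p probe differed from the miR-376a-3p probe at 5 of 17 bases, and the next nearest probe of the cluster at 7 of 15. The RefSeq table held 34 of the 37 mature sequences (not miR-376c-3p, miR-485-5p or miR-487b-3p), and these had 34 different seeds, so no 2 of the 34 shared one. The seeds of miR-376a-3p and miR-376b-3p were UCGUAGA and UCAUAGA.

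Each of the 37 miRNAs was read by 30 spots, and no spot of a member was saturated. The arrays differed in brightness by model. Over the 299 probes that were well above background on all arrays, the 75th percentile of background-corrected signal was 853 to 1128 intensity units on EAM arrays and 138 to 533 on LAD arrays, with LAD array 3 lowest and LAD array 2 highest of the LAD arrays. Pairs of EAM arrays correlated at 0.993 to 0.998 across the tested miRNAs and pairs of LAD arrays at 0.902 to 0.967. T cell miRNAs, such as miR-150-5p and miR-142a-3p, were detected on all arrays (8 of 8). Their summed linear levels were 59167.5 to 65531.9 on EAM arrays and 49490 to 53292 on LAD arrays. Of the 8, 4 were called higher in EAM and 1 higher in LAD, against 36.2% and 23.6% of all tested miRNAs. None of 7 muscle and heart miRNAs was detected, nor were 9 of 10 stromal, fibroblast and endothelial miRNAs (all but miR-126a-3p) or 4 of 5 neuronal ones (all but miR-128-3p). The summed linear level of the 5 neuronal miRNAs was 183 to 227 on EAM arrays and 188 to 2183 on LAD arrays. miR-128-3p had log2 values of 6.91, 11.05 and 9.60 on LAD arrays 1 to 3, against 6.87 to 7.32 in EAM, and did not pass (limma, adjusted p = 0.0559). Of 7 epithelial miRNAs 5 were detected on some arrays and 4 of the 5 tested were called higher in EAM, with summed linear levels of 221 to 270 on EAM arrays and 154 to 189 on LAD arrays. Of 4 red cell and megakaryocyte miRNAs miR-451a alone was detected, on all arrays, with sums of 148 to 198 and 132 to 284. Of 4 myeloid miRNAs 1 was detected, miR-223-3p, and the summed linear level of the 4 was 137 to 159 on EAM arrays and 268 to 643 on LAD arrays. Values below are log2 of background-corrected, quantile-normalized signal unless named otherwise. This scaling put the median of all tested miRNAs at -0.31 (LAD minus EAM), against -1.17 without scaling.

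Most of the cluster was not detected in these T cells. In bulk RNA such as this, fewer cells carrying a miRNA and less of it per cell cannot be told apart. By the detection mark in the deposited files, 5 of the 37 miRNAs were detected on at least 1 array (13.5%), against 553 of 1881 names over the whole array (29.4%), and miR-668-3p alone was detected on all 7 arrays, against 251 names in all. The EAM arrays 1 to 4 detected 4, 4, 3 and 2 of the miRNAs, a mean of 3.25 ± 0.957 (SD, n = 4), and each LAD array detected 2 (SD 0, n = 3). Over all names the EAM arrays detected 458 ± 10.74 (SD, n = 4) and the LAD arrays 344 ± 34.6 (SD, n = 3), so more names of any kind were marked on EAM arrays. The sets differed between the models: the EAM counts came from miR-487b-3p and miR-668-3p with miR-376b-3p and miR-376a-3p on some arrays, and the LAD counts from miR-376c-3p and miR-668-3p. Under a stricter call, more than 50% of the spots had to be well above background. It found the same 5 names, at a mean of 1.5 in EAM and 1.67 in LAD. Over all names it found 374 of 1881 (19.9%), at means of 295 in EAM and 206 in LAD. It marked miR-376b-3p on 3 EAM arrays, miR-487b-3p on 2 and miR-376a-3p on 1. On LAD arrays it marked miR-668-3p on 3 and miR-376c-3p on 2. A looser call took values over the median plus 3 MAD of the names not marked as detected. It added miR-370-3p (2 EAM arrays), miR-409-3p (1 LAD array) and miR-667-3p (1 LAD array), at means of 3.75 and 3. It also marked miR-487b-3p on 1 LAD array. In all, this call found 8 of the 37 miRNAs (21.6%) and 628 of 1881 names (33.4%). Its means over all names were 484 in EAM and 441 in LAD.

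**Figure D1:**
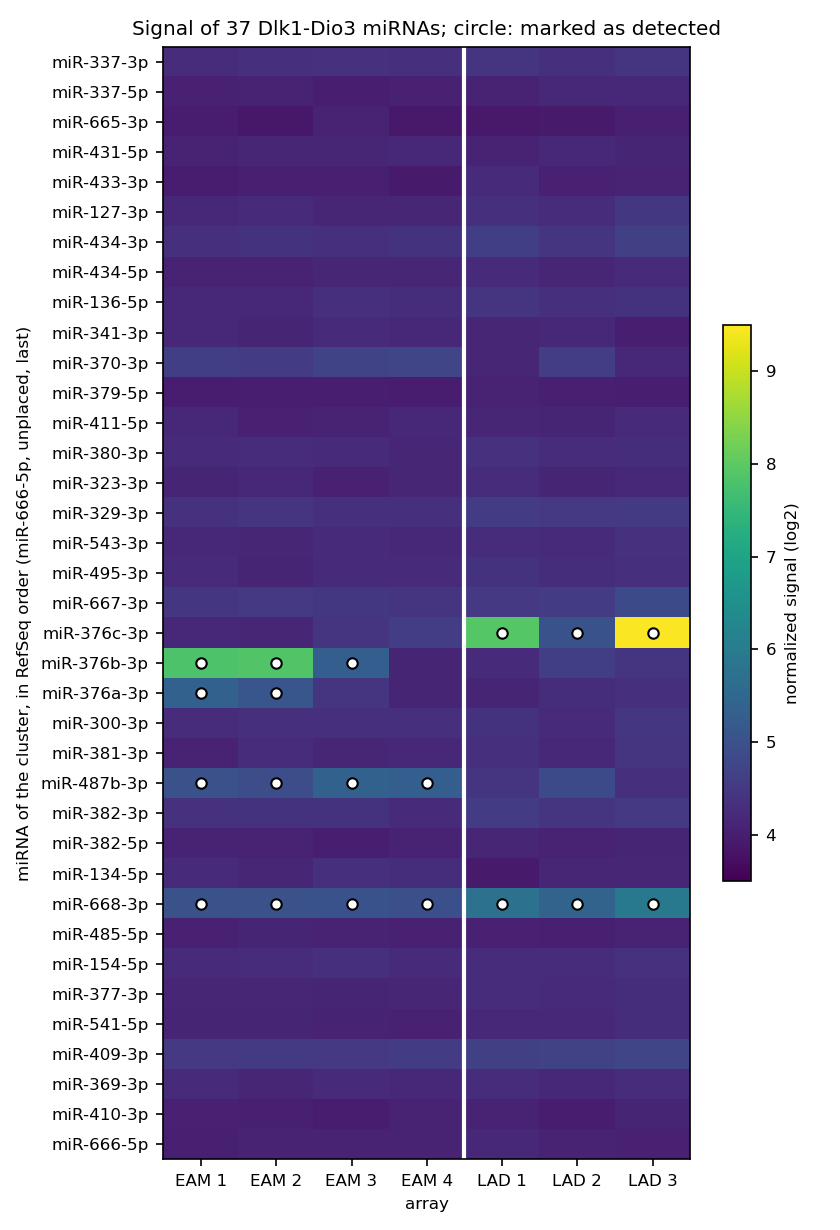
Log2 normalized signal of the 37 miRNAs (vertical axis, in RefSeq order along the chromosome, with miR-666-5p last because it had no hairpin entry) on each array (horizontal axis); colour gives the level and a white circle marks detection. The detected values sit in 5 rows, with miR-376c-3p bright on LAD arrays 1 and 3 and miR-376b-3p bright on EAM arrays 1 and 2, while the other 32 rows stay between 3.89 and 4.84.

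The 32 undetected miRNAs came from every stretch of the cluster. All 9 members lying within Rtl1 were among them (miR-337-3p, miR-337-5p, miR-665-3p, miR-431-5p, miR-433-3p, miR-127-3p, miR-434-3p, miR-434-5p and miR-136-5p), several of which pair fully with the Rtl1 message and direct its cleavage. So were miR-341-3p and miR-370-3p, which lie within Rian, and all 6 within Mirg (miR-154-5p, miR-377-3p, miR-541-5p, miR-409-3p, miR-369-3p and miR-410-3p). Between Rian and Mirg, miR-379-5p, miR-411-5p, miR-380-3p, miR-323-3p, miR-329-3p, miR-543-3p, miR-495-3p, miR-667-3p, miR-300-3p, miR-381-3p, miR-382-3p, miR-382-5p, miR-485-5p and miR-134-5p, a regulator of dendritic spines in neurons, were not detected, nor was miR-666-5p. The spots of the undetected miRNAs had an unscaled median of 44.6 to 49.4 intensity units per array, while negative control spots had 45.6 to 50.9.

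Among the undetected miRNAs the values varied little between arrays of a group. Their median SD was 0.040 in EAM (n = 4) and 0.064 in LAD (n = 3), against 0.054 and 0.063 over all 1328 undetected names. Their LAD-minus-EAM differences ran from -0.36 (miR-370-3p) to 0.20 (miR-434-3p), with a median of 0.079 and 26 of 32 (81.2%) above 0. The same median over all undetected names was 0.046, with 904 of 1328 (68.1%) above 0. miR-370-3p had 4.61, 4.54, 4.74 and 4.76 on EAM arrays 1 to 4 and 4.14, 4.59 and 4.16 on LAD arrays 1 to 3, so LAD array 2 lay within the EAM range. miR-409-3p had 4.49, 4.51, 4.50 and 4.55 in EAM and 4.63, 4.67 and 4.75 in LAD, and the groups did not overlap. With every name on the array tested, without a detection filter, 444 of 1881 names passed in limma (23.6%; 206 higher in LAD, 11% of the names), and among the 32 undetected miRNAs miR-409-3p (0.17, adjusted p = 0.0268) and miR-329-3p (0.17, adjusted p = 0.0272) passed, both at the level of undetected names.

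miR-376b-3p was well above background on EAM arrays 1 and 2 and was not detected on EAM array 4 or on any LAD array. Its values were 7.82, 7.87, 5.29 and 4.12 on EAM arrays 1 to 4 and 4.23, 4.62 and 4.40 on LAD arrays 1 to 3, and EAM arrays 1, 2 and 3 were marked as detected. EAM arrays 1 and 2 were high, EAM array 3 lay between, and EAM array 4 lay below all LAD arrays, so the groups overlapped. The median unscaled spot signal of its 2 probes was 334 and 343 units on EAM array 1, 336 and 376 on EAM array 2, 62.3 and 72.5 on EAM array 3 and 43.4 and 44.1 on EAM array 4. On EAM arrays 1 and 2 all 30 of its spots were well above background, on EAM array 3 18 of 30, and on EAM array 4 none. The EAM mean was 6.28 ± 1.87 (SD, n = 4) and the LAD mean 4.41 ± 0.193 (SD, n = 3). It was not tested, because it was detected on every array of neither group; with all 553 names detected on at least 1 array tested, its LAD-minus-EAM difference of -1.86 (SE 0.93) did not pass (limma, adjusted p = 0.114), while 57.5% of those names did.

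miR-376a-3p, the nearest neighbour of miR-376b-3p along the chromosome, was detected on EAM arrays 1 and 2 and on no other array. Its values were 5.36, 5.10, 4.43 and 4.11 on EAM arrays 1 to 4 and 4.13, 4.29 and 4.33 on LAD arrays 1 to 3. EAM arrays 1 and 2 were the high ones again, EAM array 3 lay just above LAD array 3, and EAM array 4 was the lowest of all, so the groups overlapped. Of its 30 spots, 29 were well above background on EAM array 1 and 13 on EAM array 2. The EAM mean was 4.75 ± 0.577 (SD, n = 4) and the LAD mean 4.25 ± 0.106 (SD, n = 3). Over all names detected on at least 1 array the difference of -0.50 (SE 0.30) did not pass (limma, adjusted p = 0.174). Across the 7 arrays miR-376a-3p and miR-376b-3p correlated at 0.981 (Pearson's r, a description; arrays of 1 group share its level, and the probes differ at 2 of 17 bases). Whether the miR-376a-3p probes took signal from miR-376b-3p was not tested.

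miR-376c-3p had the opposite pattern and the largest difference of the cluster. Its values were 4.16, 4.14, 4.42 and 4.60 on EAM arrays 1 to 4 and 7.91, 5.0 and 9.47 on LAD arrays 1 to 3, and it was detected on every LAD array and on no EAM array. LAD arrays 3 and 1 were far above the others and LAD array 2 only just above EAM array 4, so the groups did not overlap. The EAM mean was 4.33 ± 0.221 (SD, n = 4), not well above background, and the LAD mean was 7.46 ± 2.27 (SD, n = 3), a difference of 3.13 (SE 0.90). It entered the test through the LAD arrays alone, where it was high, so its adjusted p of 0.0236 in limma is favoured by that choice; with every name tested, without a detection filter, it was 0.0555 and did not pass. Since no EAM array detected it, its EAM level was set to the higher of its own value and the lowest detected miRNA on each EAM array (mean 4.37). Against that level miR-376c-3p was 8.53-fold higher in LAD. The lowest detected miRNAs, at 4.02 to 4.30 on EAM arrays, lay among the undetected names (median 4.14 to 4.15). The fold is therefore no strict minimum, and it holds only for these normalized values. Before scaling, the values were 4.48, 4.36, 4.49 and 4.74 in EAM and 6.55, 4.91 and 7.10 in LAD, a difference of 1.67 (SE 0.47, limma, adjusted p = 0.0130), again without overlap.

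The spots of miR-376c-3p showed the same order of arrays before any processing. The median mean-spot signal over its 4 probes was 119 to 128 units on LAD array 1, 56.5 to 63.4 on LAD array 2 and 157 to 175 on LAD array 3, and 45.3 to 51.9 over the EAM arrays. All 30 spots were well above background on LAD arrays 1 and 3, but 1 of 30 on LAD array 2. The test rested on few arrays: leaving out any array but LAD array 2 gave an adjusted p of 0.0552 to 0.0628. The difference fell to 2.13 when LAD array 3 was dropped and to 2.91 when LAD array 1 was dropped, and it was 4.36 (adjusted p = 0.000183) when LAD array 2 was dropped. The 2 LAD arrays where miR-376c-3p was high, 1 and 3, were also the dimmest arrays overall (75th percentile 215 and 138 units), and the myeloid miR-223-3p had 9.19, 7.78 and 7.71 on LAD arrays 1 to 3 against 6.43 to 6.73 in EAM; their part in this difference was not tested.

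miR-376c-3p was thus high on other arrays than its relatives miR-376b-3p and miR-376a-3p. On LAD array 3, where miR-376c-3p stood at 9.47, miR-376b-3p and miR-376a-3p stood at 4.40 and 4.33 and were not detected. On EAM arrays 1 and 2, where miR-376b-3p stood at 7.82 and 7.87, miR-376c-3p stood at 4.16 and 4.14 and was not detected. The other strand of each hairpin, miR-376a-5p, miR-376b-5p and miR-376c-5p, was detected on no array, with values of 4.08 to 4.36, 4.14 to 4.40 and 4.10 to 4.29. The chromosomal neighbours of the 3 within the chosen set, miR-667-3p before and miR-300-3p after, were not detected either.

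**Figure D2:**
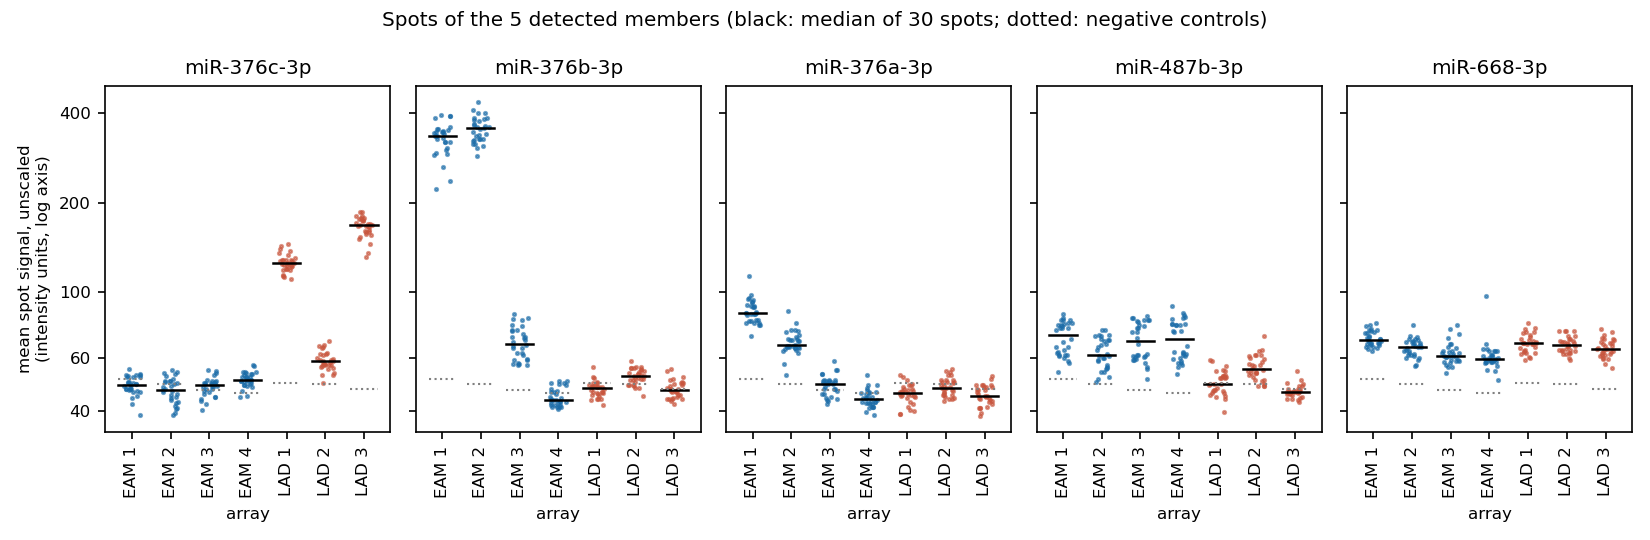
Unscaled mean signal of each of the 30 spots (points; vertical axis in intensity units, log axis) per array (horizontal axis; EAM blue, LAD red) for the 5 detected miRNAs; black bars are medians over the spots and dotted lines the median of negative control spots. miR-376c-3p is far above the controls on LAD arrays 1 and 3 and slightly above them on LAD array 2. miR-376b-3p is far above the controls on EAM arrays 1 and 2 and less so on EAM array 3. miR-668-3p lies at 57.0 to 72.1 units (probe medians) on every array of both groups.

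Of the 37 miRNAs, 3 entered the comparison between the models, which required detection on every array of at least 1 group. At an adjusted p of 0.05 in limma, miR-376c-3p and miR-668-3p were called higher in LAD and miR-487b-3p higher in EAM. The first and the last had been admitted only through the group in which they were high, so a difference was built into their selection, and miR-668-3p alone was admitted by both groups. Over all 423 tested miRNAs 253 passed (59.8%), 100 higher in LAD (23.6%) and 153 higher in EAM (36.2%), so passing was the common outcome on these arrays. The groups did not overlap for these 3, and for 56.3% of all tested miRNAs. In an unmoderated test with unequal variances 0 of 423 passed, 121 had an unadjusted p under 0.05, and the adjusted p of the 3 was 0.234 (miR-376c-3p), 0.172 (miR-487b-3p) and 0.172 (miR-668-3p).

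miR-487b-3p was detected on all 4 EAM arrays and on no LAD array. Its values were 4.98, 4.92, 5.35 and 5.28 on EAM arrays 1 to 4 and 4.43, 4.84 and 4.33 on LAD arrays 1 to 3. EAM arrays 3 and 4 were the highest and LAD array 2 came close to EAM array 2, without overlap. The EAM mean was 5.13 ± 0.215 (SD, n = 4) and the LAD mean, not well above background, was 4.54 ± 0.27 (SD, n = 3), a difference of -0.60 (SE 0.18). It entered the test through the EAM arrays alone, where it was high, so its adjusted p of 0.0273 in limma is favoured by that choice; without a detection filter it was 0.0393. Set against the higher of its own value and the lowest detected miRNA on each LAD array, it was 1.51-fold higher in EAM. This fold is no strict minimum either. At spot level the probe medians were 56.1 to 79.1 units in EAM and 46.2 to 59.7 in LAD, and 8 to 19 of 30 spots per EAM array were well above background. With the 75th percentile of the detected probes as scaling the direction turned, to 0.80 (adjusted p = 0.0265). The difference stayed close to that of the typical tested miRNA: minus the median of the tested miRNAs it was -0.29 here, 0.018 with no scaling, with median centring and with either 75th percentile (sets that differ from each other by a shift per array), and -0.076 in the authors' table. Leaving out EAM array 1, 3 or 4 or LAD array 1 or 3 raised its adjusted p to 0.0529 to 0.0858.

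miR-668-3p was the only member detected on all 7 arrays, close to the background on each. Its values were 4.98, 5.0, 5.02 and 4.96 on EAM arrays 1 to 4 and 5.76, 5.41 and 5.93 on LAD arrays 1 to 3. The EAM arrays lay between 4.96 and 5.02, and all 3 LAD arrays lay above them. The EAM mean was 4.99 ± 0.0277 (SD, n = 4) and the LAD mean 5.70 ± 0.265 (SD, n = 3), a difference of 0.71 (SE 0.15, limma, adjusted p = 0.0118). It passed with each array left out in turn (adjusted p 0.000212 to 0.0455). Before scaling the values were 5.42, 5.24, 5.08 and 5.12 in EAM and 5.08, 5.24 and 4.99 in LAD, a difference of -0.11 (adjusted p = 0.563), with overlap. Its probe medians were 57.0 to 72.1 units in EAM and 61.6 to 70.4 in LAD, and the higher LAD level was not there before scaling. By the stricter spot call it was detected on all 3 LAD arrays and on no EAM array. Its longest probe had 13 bases, and its probes were among the shortest of the cluster, which ran from 10 to 22 bases.

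The differences of the 5 detected miRNAs were set side by side over 9 alternative sets of values that use the spot signal or the authors' table. miR-376c-3p was higher in LAD in all 9, by 1.67 to 3.84, and 2.05 to 4.25 above the median of the tested miRNAs. miR-376b-3p was lower in LAD in all 9, by -2.47 to -0.52, although it was detected on 3 EAM arrays only. miR-668-3p was above the tested median in all 9 (0.48 to 1.33) and above 0 in 8 of 9. The median of all undetected names also lay above the tested median in every set. It was 0.046 against -0.31 in the reported values and -0.47 against -1.17 without scaling. A position above the tested median was thus common near background, where miR-668-3p lay. miR-487b-3p and miR-376a-3p lay on both sides of the tested median, at -0.49 to 0.018 and -0.38 to 0.11, and were below 0 in 8 of 9. By the deposited total gene signal, quantile normalized, where undetected values sit at a floor of 0.1 units, the difference was 8.94 for miR-376c-3p and -6.00 for miR-487b-3p; these differences are set by the floor.

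**Figure D3:**
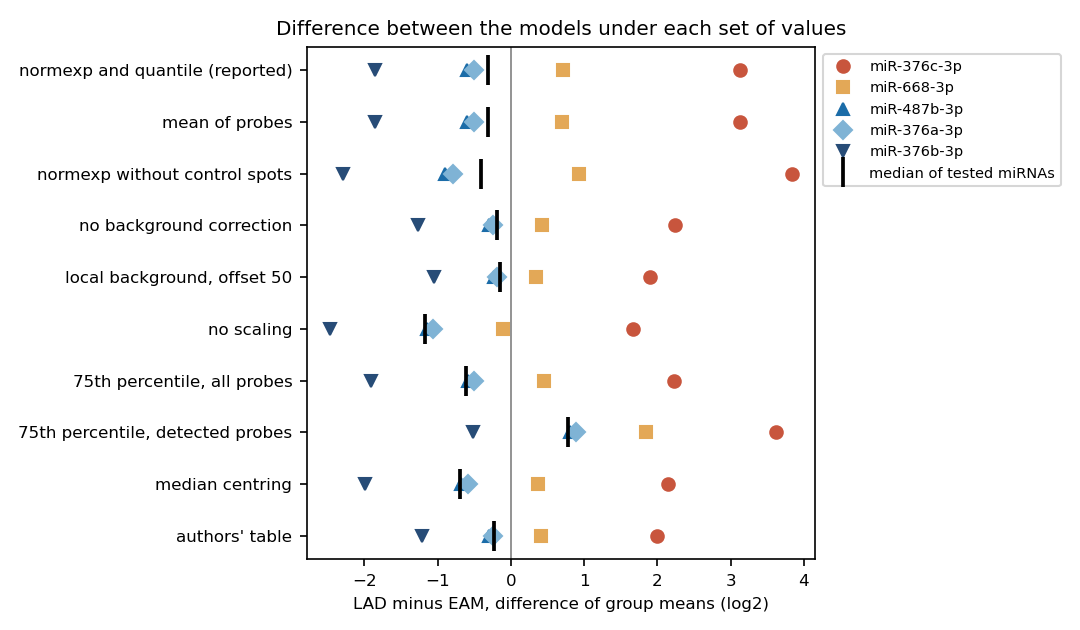
LAD-minus-EAM difference of group means (horizontal axis, log2) of the 5 detected miRNAs under the reported values and 9 alternatives (vertical axis); the black bar is the median of the 423 tested miRNAs. miR-376c-3p lies to the right in every set, miR-376b-3p to the left, miR-487b-3p and miR-376a-3p close to the black bar, and miR-668-3p falls to -0.11 without scaling.

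The names outside the locus whose values ran most like those of miR-376c-3p over the 7 arrays, among 416 tested miRNAs, were miR-3063-3p (Pearson's r 0.999), miR-669a-3-3p (0.984), miR-466f-3p, miR-32-3p and miR-466h-3p (0.982 each). miR-3063-3p had 4.47, 4.47, 4.68 and 5.05 in EAM and 8.31, 5.53 and 9.70 in LAD, with the LAD arrays in the same order. Of these, miR-669a-3-3p, miR-466f-3p and miR-466h-3p carry names of the Sfmbt2 cluster, another imprinted cluster of mouse miRNAs. These correlations describe 7 arrays that share a slide, a scaling and 2 group levels.

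For miR-376b-3p, which was not among the tested miRNAs, the most like of 541 names detected on at least 1 array were miR-497b (0.998), miR-6393 (0.997), miR-7680-3p (0.992), miR-873b (0.991) and miR-452-5p (0.986), a comparison added after its values were seen. miR-497b had 7.24, 7.15, 4.76 and 3.99 in EAM and 3.97, 4.25 and 3.97 in LAD. In all, 14 of 1881 names were detected on EAM arrays 1 and 2 but not on EAM array 4 or any LAD array, and 2 of the 14 were miR-376a-3p and miR-376b-3p. Detection on every LAD array and no EAM array was found for 4 names, 1 of them miR-376c-3p (the others were miR-5127, miR-7005-3p and miR-7057-3p), and the reverse for 49 names, 1 of them miR-487b-3p.

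**Figure D4:**
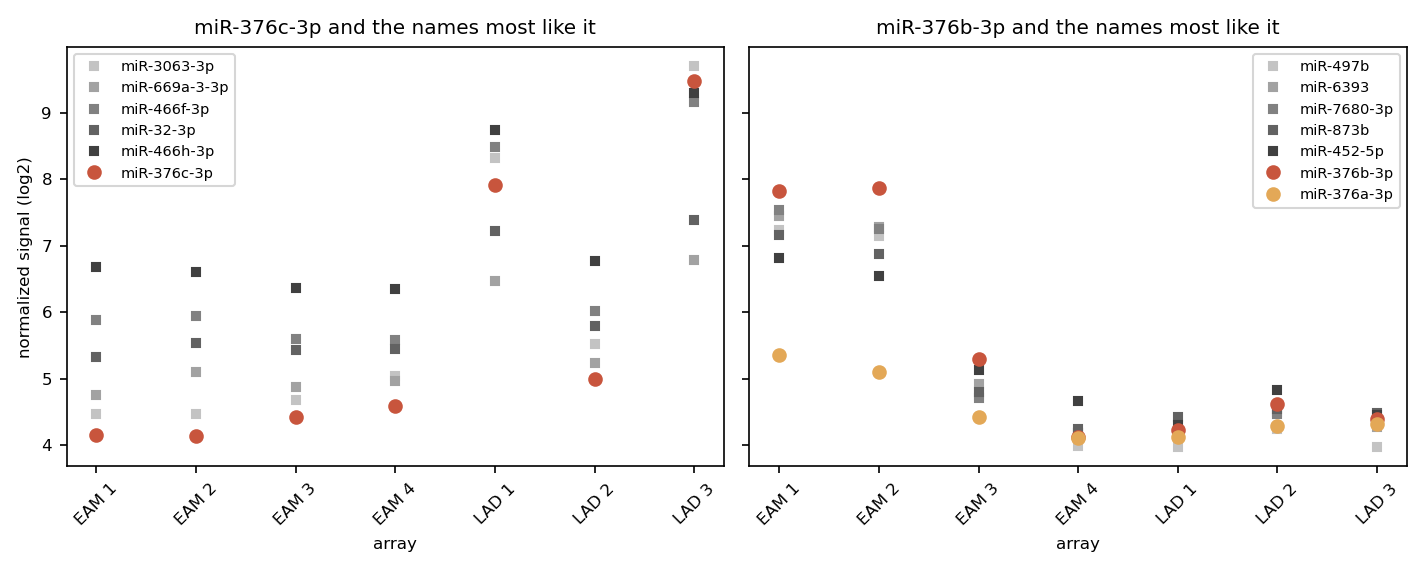
Log2 normalized signal (vertical axis) per array (horizontal axis) of miR-376c-3p (left, red) and miR-376b-3p (right, red, with miR-376a-3p in ochre) and of the 5 names most like each (grey); levels of different probes are not comparable, only their changes between arrays. The left group is highest on LAD arrays 3 and 1 and the right group on EAM arrays 1 and 2.

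Little of the rest of the locus was detected. Of 76 further names of the region, which include opposite strands of the same hairpins, 7 were detected on at least 1 array (9.21%), and of 4 tested 1 was called, miR-1188-3p. miR-487b-5p and miR-668-5p, the opposite strands of miR-487b-3p and miR-668-3p, were detected on none, with values of 4.12 to 4.40 and 3.93 to 4.15. miR-494-3p was bright on all arrays, with 8.95, 8.87, 9.43 and 9.26 in EAM and 8.69, 8.92 and 8.22 in LAD. It did not pass (difference -0.52, limma, adjusted p = 0.0658). Before scaling it was called higher in EAM (-2.21, limma, adjusted p = 0.00508), as were 299 of the 423 tested miRNAs. miR-1188-3p, read by probes of 13 and 14 bases, had values of 4.90, 4.95, 4.91 and 4.92 in EAM and 5.81, 5.19 and 6.15 in LAD (difference 0.80, limma, adjusted p = 0.0207). As with miR-668-3p, its groups overlapped before scaling, where the difference was -0.03 (adjusted p = 0.866). miR-485-3p was detected on LAD arrays 1 and 3 only, the same 2 arrays where miR-376c-3p was high. It had 5.63 and 5.51 there, against 4.42 on LAD array 2 and 4.21 to 4.45 in EAM. Before scaling it had 5.02 and 4.72 on LAD arrays 1 and 3, against 4.41 on LAD array 2 and 4.26 to 4.64 in EAM. On LAD arrays 1 and 3, 11 and 10 of its 30 spots were well above background. miR-3070-2-3p was detected on all arrays, with 6.29, 6.53, 6.48 and 6.40 in EAM and 5.73, 6.37 and 5.77 in LAD. It did not pass (difference -0.47, limma, adjusted p = 0.0541) but did before scaling (-1.47, limma, adjusted p = 0.00406). miR-3072-5p was detected on all arrays (difference -0.31, limma, adjusted p = 0.155), miR-882 on EAM array 1 and miR-3070-3p on EAM arrays 3 and 4. Before scaling miR-3072-5p passed as well (-1.37, limma, adjusted p = 0.00835). RefSeq placed miR-3072 on chromosome 12 outside the stretch of the chosen miRNAs. Among the 61 names of the Sfmbt2 cluster, 48 were detected on at least 1 array (78.7%), and of 37 tested 10 were higher in LAD and 6 in EAM, 43.2% called against 59.8% of all tested miRNAs.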

How the data were processed

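Small RNA of CD4+ T cells was hybridised to 7 one-colour Agilent miRNA arrays on 1 slide. Per the file headers, images were read with Agilent Feature Extraction 10.7.3.1. The scanner files, as deposited, hold unscaled intensity for each spot and, as total gene signal, for each miRNA. Their other columns used here are 0 or 1 marks (detection, outlier, saturation). The authors' own values are given as log2; the submitters' processing notes name RMA, without a role. Of 58594 spots, 56430 were not controls (4415 probes).

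Mean spot signal was corrected with normexp (limma 3.58.1, R 4.3.3, fitted on all spots, no offset), quantile normalized, log2 transformed, taken as the median over non-outlier spots of a probe (R package data.table, version 1.17.8) and summarised by median polish per miRNA. The comparison took the 423 miRNAs that all arrays of EAM, all of LAD or all 7 detected, and was made with lmFit and eBayes, Benjamini-Hochberg adjusted over all 423, threshold 0.05, as LAD minus EAM. The fit was tested on simulated data in which both groups had the same spread, so unequal spread was not checked. eBayes takes 1 variance for both groups, and the LAD arrays varied more. Precision is limited by the number of arrays.

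The rule for named miRNAs was every member detected on at least 1 array, further miRNAs of the locus detected on at least 1 array, marker miRNAs of other cell types as ranges, and the 5 names most like the member with the largest difference; others named were chosen after their values were seen. The members and lists were chosen with earlier results of these data known. Sequences, order and host genes came from RefSeq (GRCm38.p6), positions from the array annotation (mm9). The main fit did not pair arrays by replicate number, although same-numbered EAM and LAD arrays shared a slide row. Their deviations from the group means correlated at 0.198, -0.161 and -0.191, and those of differently numbered arrays at -0.385 to 0.336. So few arrays cannot exclude a pairing. Alternatives changed the background correction, scaling, summary, detection filter, variance model, block and arrays used.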

Additional observations from a re-analysis of the deposited data

How the results depend on the processing

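The count over all 423 tested miRNAs was 253. It moved by over 1.5 times with total gene signal (166 of 423), with names detected on all arrays (135 of 251 tested) and with no filter (444 of 1881 tested). The last 2 counts came from pools of another size. The count was 0 with the unmoderated test, the replicate block and a fold of at least 1.5 (limma's treat). Unadjusted p under 0.05 was then reached by 121, 179 and 56 miRNAs, 2, 2 and 1 of them among the cluster's 3 tested miRNAs. Leaving out 1 array gave 66 (without EAM array 4) to 344 (without LAD array 2). The split of higher in LAD against higher in EAM, 100 to 153, was 2 to 299 without scaling, 54 to 265 with median centring, 77 to 247 when scaled to the all-probe 75th percentile and 250 to 31 with that of detected probes.

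The count of the cluster's miRNAs that passed was 3 of the 3 tested. With names detected on all arrays only 1 of them, miR-668-3p, was tested, and it passed. The count was 0 in the same 3 fits, and 1 to 3 with an array left out (1 without EAM array 1, 3 or 4 or LAD array 1 or 3). The difference of miR-376c-3p kept its direction but missed the threshold when normexp used the local background plus an offset of 50 (1.90, adjusted p = 0.0524), with no filter (3.13, adjusted p = 0.0555), the unmoderated test (adjusted p = 0.234), the replicate block (3.22, adjusted p = 0.0902) and treat (adjusted p = 0.279), and was 2.13 to 4.36 with an array left out. miR-487b-3p turned to 0.80 with the 75th percentile of detected probes, missed the threshold in the unmoderated test (-0.60), the replicate block (-0.55, adjusted p = 0.142) and treat (-0.60, adjusted p = 0.9997), and was -0.75 to -0.50 with an array left out. miR-668-3p turned to -0.11 without scaling, missed the threshold in the unmoderated test (0.71), the replicate block (0.70, adjusted p = 0.0945) and treat (0.71, adjusted p = 0.740), and was 0.60 to 0.86 with an array left out. The mean number of the cluster's miRNAs detected per array was 3.25 in EAM and 2 in LAD. It was 1.5 and 1.67 with over 50% of spots well above background and 3.75 and 3 with the median plus 3 MAD. With an array left out it was 3 to 3.67 in EAM and 2 in LAD. Over all names the EAM and LAD means by these 3 calls were 458 and 344, 295 and 206, and 484 and 441. The cause of these shifts was not tested. Fitting normexp without control spots, an alternative added after seeing the data, gave 3.84, -0.90 and 0.93 for miR-376c-3p, miR-487b-3p and miR-668-3p and changed no call of the 3. miR-487b-3p and miR-668-3p lie near background on the arrays that detect them, so their folds are rough.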
